A study of Gallus gallus with 2 samples.

Results

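The genes described here encode the core proteins that make and use small RNAs in animal cells. They were measured in 2 samples of sorted cells from electroporated chicken neural tube, of which 1 received plasmids for short hairpin RNAs. The rule names 10 genes (DICER1, DROSHA, DGCR8, XPO5, AGO1, AGO2, AGO3, AGO4, TARBP2 and PRKRA), and takes every probe set whose platform or current symbol is one of them, with older EIF2C names counted as AGO. By this rule 7 of the 10 genes had probe sets, 19 in all, out of 13008 genes with a symbol on the array. AGO2, TARBP2 and PRKRA matched no probe set in this way and were not analysed here. The knockdown group is 1 sample of GFP-positive cells from the neural tube that received pSuper-neo-GFP-Sox4-shRNA together with pSuper-neo-GFP-Sox11-shRNA, and the control group is 1 sample that received pSuper-neo-GFP. Both came from Gallus gallus embryos electroporated on both sides at Hamburger-Hamilton stage HH9, were sorted by GFP after harvest at HH11, and carry the label stage HH11, although an incubation of 2 days is also stated. No genetic deletion is named for either group, and how many embryos were pooled is not stated in the labels. For the control plasmid the labels name no hairpin, so hairpin expression as such and the loss of Sox4 and Sox11 cannot be told apart in this design.

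A microRNA is first cut from its long transcript in the nucleus by the microprocessor, which is the nuclease DROSHA with its RNA-binding partner DGCR8. The resulting hairpin leaves the nucleus with exportin 5, the product of XPO5, is trimmed to a duplex by the nuclease DICER1 with a helper protein from TARBP2 or PRKRA, and is loaded into an Argonaute protein that silences matching messengers. Short hairpins from plasmids of the pSuper type are made already in the form of a hairpin, so in general they pass over the microprocessor step and share exportin 5, DICER1 and the Argonautes with the cell's own microRNAs. Developing neural tissue depends on this pathway, and loss of Dicer in the mouse nervous system impairs the survival and differentiation of neural cells.

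The values are MAS5 signals, linear intensities of a probe set, and every ratio below is log2 of the knockdown signal over the control signal. With 1 array per group there was no spread between replicates, so no difference was tested and no p-value is given, and precision is limited by having 2 arrays. Background was set from 687 viral probe sets at their 95th percentile, 65.8 on the knockdown array and 63.6 on the control array. A probe set was called measured when its geometric mean signal over both arrays reached 118, the median of chicken probe sets, and a gene was represented by its brightest probe set. Chicken probe sets had a median signal of 134 in the knockdown sample and 113 in the control sample. All 6 neural tube markers listed (SOX2, SOX1, SOX3, PAX6, CDH2 and MSI1) lay above background on both arrays. By their brightest probe sets 5 of the 6 lay below 0, beside 4452 of all 9303 measured genes. Their median log2 ratio was -0.23, with SOX1 at -0.77 and SOX2 the other way at 0.76. Another measured probe set of MSI1 gave 0.84. Their summed signals were 70353 in the knockdown sample and 80660 in the control sample. SOX4 had a signal of 3157 in the knockdown sample, against 6604 in the control sample, and SOX11 had 2790 there, against 4552 in the control sample. By their brightest probe sets both targeted genes were thus lower in the sample labelled as the knockdown. Each has 2 probe sets, and the other was neither measured nor above background on both arrays.

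Of the 7 genes, 0 reached a 2-fold difference in either direction, where 4.71% of the 9303 measured genes did (3.64% higher and 1.06% lower). DICER1 was the only member at least 1.5-fold higher and no member was at least 1.5-fold lower, where 11.4% and 5.71% of measured genes were. By their brightest probe sets 2 members lay above 0 (DICER1 and AGO3) and 5 below (DROSHA, DGCR8, XPO5, AGO1 and AGO4). Over all 9303 measured genes, 4850 lay above 0 and 4452 below. The median log2 ratio of the 7 was -0.24, beside 0.02 over all measured genes. That median took the other sign when all of a gene's probe sets were averaged (0.30), beside 0.14 over all measured genes under the same rule. Of the 19 probe sets, 14 lay above background on both arrays, 13 were measured, 1 was above background in the knockdown only, 1 in the control only and 3 on neither.

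**Figure D1:**
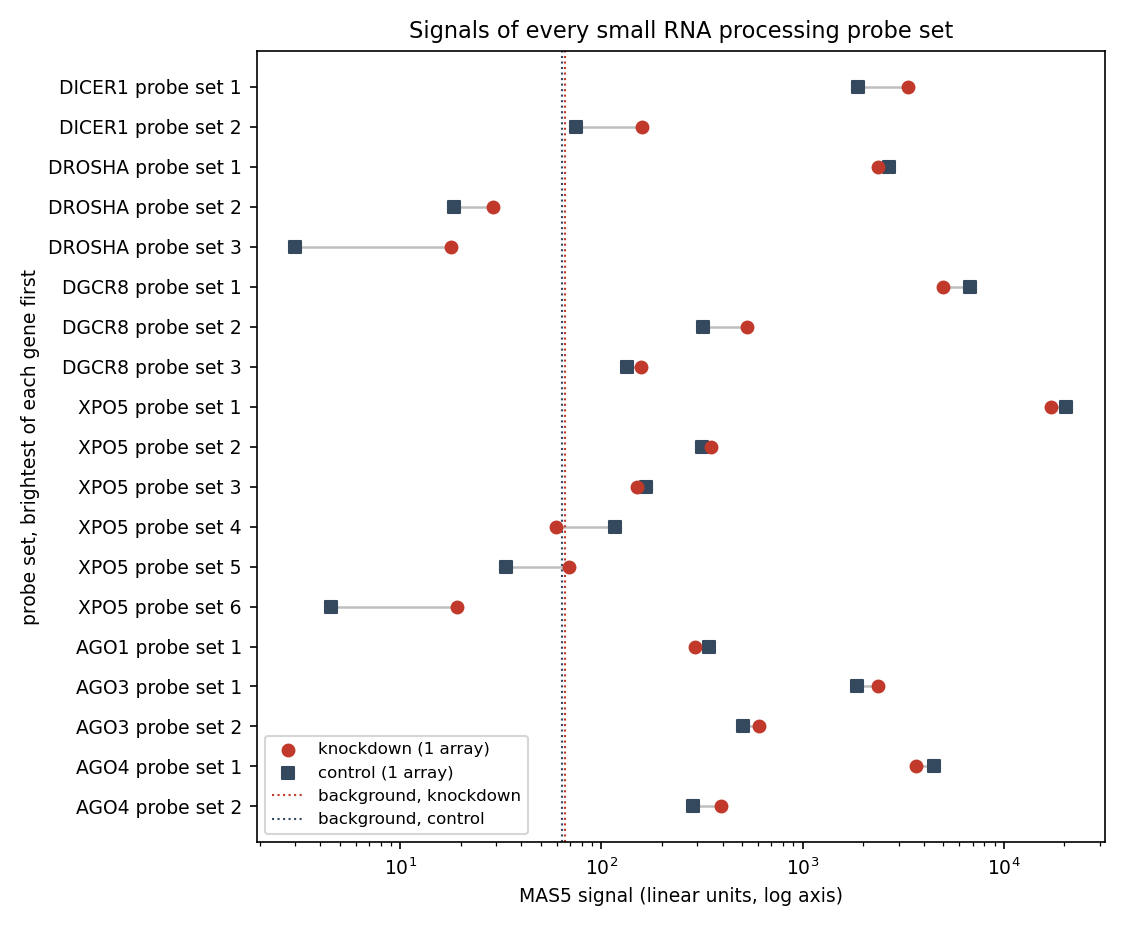
MAS5 signal (linear units on a log axis) of each of the 19 probe sets, with 1 row per probe set and the brightest of a gene first; circles are the knockdown array, squares the control array, and dotted lines the background of each array. Both DICER1 and both AGO3 probe sets have the knockdown value to the right of the control value, whereas in DGCR8 and AGO4 the brightest probe set goes one way and the dimmer ones the other.

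The microprocessor genes had slightly lower signals in the knockdown sample by their brightest probe sets. DROSHA, the nuclease that cuts primary microRNA transcripts, had a signal of 2363 in the knockdown sample and 2682 in the control sample (log2 ratio -0.18, probe set GgaAffx.12824.1.S1_at). Its other 2 probe sets, at 29 and 17.8 in the knockdown sample against 18.4 and 3 in the control sample, lay below background on both arrays and give no fold. DROSHA therefore rests on 1 probe set, and 348 of the 500 chicken probe sets closest to it in mean signal had a higher ratio.

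DGCR8, the partner that recognises the primary transcript, had 3 measured probe sets that did not point the same way. The brightest, Gga.5223.1.S1_at, had a signal of 4980 in the knockdown sample and 6824 in the control sample (log2 ratio -0.45, 1.37-fold lower). Among the 500 chicken probe sets closest to it in mean signal, 451 had a higher ratio and 49 a lower one. GgaAffx.25377.1.S1_s_at had 527 in the knockdown sample and 319 in the control sample (log2 ratio 0.72, 1.65-fold higher), and Gga.12473.1.S1_at had 156.9 in the knockdown sample and 133.5 in the control sample (log2 ratio 0.23). The range between them was 1.18 on the log2 scale, the widest of the 4 members with several measured probe sets. DGCR8 was the lowest of the 7 genes by its brightest probe set, and 0.17 by the mean of its probe sets, so no direction can be given for it.

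XPO5, which carries hairpins out of the nucleus and is a step that plasmid hairpins share, was slightly lower by its brightest probe set. That probe set, Gga.16432.1.S1_at, had a signal of 17094 in the knockdown sample and 20419 in the control sample (log2 ratio -0.26, 1.19-fold lower). Among the 500 chicken probe sets closest to it in mean signal, 405 had a higher ratio and 95 a lower one. Another pair of measured probe sets gave 351 in the knockdown sample against 316 in the control sample (0.15), and 150.6 in the knockdown sample against 165.6 in the control sample (-0.14). All 3 measured values thus lay within 1.5-fold, on both sides of 0.

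The other 3 XPO5 probe sets were at or below background on at least 1 array. One had 59.1 in the knockdown sample, below background, and 117 in the control sample, which makes it at least 1.78-fold lower. The next had 69.3 in the knockdown sample and 33.6, below background, in the control sample, which makes it at least 1.09-fold higher. The last had 19.1 in the knockdown sample and 4.5 in the control sample, below background on both, and gives no fold. With these dim probe sets included, the mean over all 6 was 0.32.

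DICER1, the nuclease that turns a hairpin into a duplex, was the member with the largest ratio by the brightest probe set, and both of its probe sets, which can each match several transcripts by their names, were higher in the knockdown sample. GgaAffx.23420.2.S1_s_at had a signal of 3341 in the knockdown sample and 1881 in the control sample (log2 ratio 0.83, 1.78-fold higher). Of the 500 chicken probe sets closest in mean signal, 15 had a higher ratio and 485 a lower one. The dimmer probe set, Gga.12004.1.S1_s_at, had 159.9 in the knockdown sample and 74.5 in the control sample (log2 ratio 1.10, 2.15-fold higher). It was above background on both arrays but just under the level for measured probe sets, and 46 of the 500 closest in signal had a higher ratio.

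The DICER1 log2 ratio was larger than 0.45, the SD of single probe sets about the mean ratio of their gene at that signal. A difference between 2 probe sets of a gene varies more than this SD. The SD comes from probe sets on the same 2 arrays and says nothing about the spread between samples. The arrays also differed by position along a transcript. Control probe sets near the 5' end of ACTB, EEF1A1 and GAPDH had log2 ratios of 1.40, 0.83 and 0.12. Those near the 3' end had -0.16, -0.13 and -0.14. A further 12 pairs of control probe sets are for the bacterial spike-in transcripts dap, lys, phe and thr, so some transcripts are counted more than once. In these pairs the 5' log2 ratio exceeded the 3' one by a median of 1.35 (0.31 to 2.38). Their median log2 ratio was 0.66 near the 5' end and -0.93 near the 3' end. The part of this difference in the DICER1 ratio was not tested. Over all measured genes, 557 had a higher ratio than DICER1. Its ratio kept its direction in each of the 12 alternative settings that gave a value, between 0.72 with median centring and 0.97 with the mean over all of its probe sets. Only 1 of its probe sets was measured and both were higher, so averaging over probe sets could not turn its direction.

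**Figure D2:**
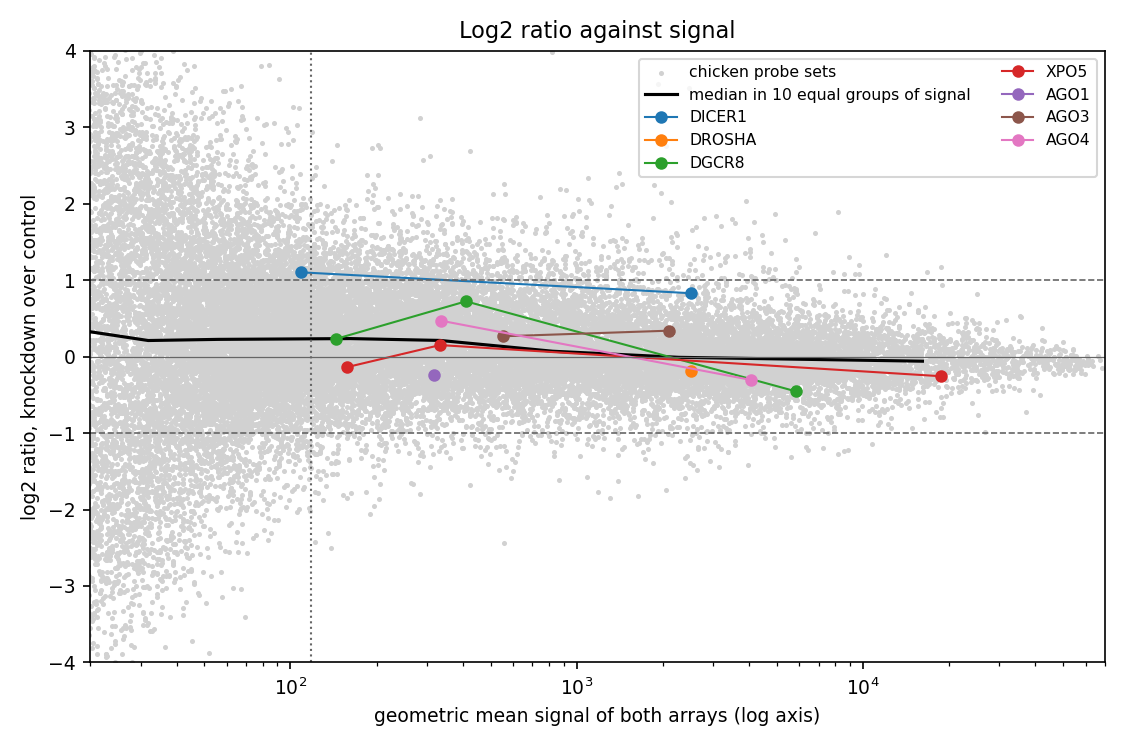
Log2 ratio of knockdown over control (y axis) against the geometric mean signal of both arrays (x axis, log scale); grey points are chicken probe sets, the black line is their median in 10 equal groups of signal, coloured points joined by lines are the probe sets of a gene above background on both arrays, dashed lines mark 2-fold and the dotted line the signal for measured probe sets. The axes leave out the dimmest probe sets and the most extreme ratios. Both DICER1 points, at 0.83 and 1.10, lie above the black line, while those of DGCR8, XPO5 and AGO4 fall on both sides of 0.

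The Argonautes, which hold the finished small RNA and find its targets, gave small ratios in both directions. In the RefSeq table of the assembly GRCg7b, AGO3, AGO1 and AGO4 follow each other directly on chromosome 23. All 5 of their probe sets have names ending in _s_at, the maker's mark for probe sets that can match several transcripts, and 3 of them share the design number 1501 in their names. Signal of these 3 genes may therefore be partly shared, and the values of AGO1, AGO3 and AGO4 are uncertain as values of single genes.

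AGO3 was higher in the knockdown sample in both of its probe sets. GgaAffx.1501.1.S1_s_at had a signal of 2369 in the knockdown sample and 1873 in the control sample (log2 ratio 0.34, 1.26-fold higher). Among the 500 chicken probe sets closest to it in mean signal, 98 had a higher ratio and 402 a lower one. GgaAffx.11873.1.S1_s_at had 605.9 in the knockdown sample and 504 in the control sample (log2 ratio 0.27). The pair differed by only 0.07 on the log2 scale, but both ratios were smaller than the probe set SD at their signals (0.43 and 0.49).

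AGO4 split by probe set. GgaAffx.11377.1.S1_s_at had a signal of 3652 in the knockdown sample and 4512 in the control sample (log2 ratio -0.31, 1.24-fold lower), and GgaAffx.1501.7.S1_s_at had 393.7 in the knockdown sample and 284.1 in the control sample (log2 ratio 0.47, 1.39-fold higher). Their mean was 0.08, so no direction can be given for AGO4 either. Among the 500 chicken probe sets closest in mean signal to the brighter one, 406 had a higher ratio and 94 a lower one. AGO1 has 1 probe set, GgaAffx.1501.3.S1_s_at, with a signal of 291.3 in the knockdown sample and 343.2 in the control sample (log2 ratio -0.24, 1.18-fold lower). Of the 500 chicken probe sets closest to AGO1 in signal, whose median log2 ratio was 0.22, 390 had a higher ratio. AGO1 lay below 0 under every setting that gave a value for it, from -0.47 with quantile normalization to -0.23 with a constant added to both signals. With 1 probe set, averaging over probe sets could not change its value.

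Opposite directions within a gene were common on these arrays. Of the 4 members with several measured probe sets, 3 had ratios on both sides of 0 (DGCR8, XPO5 and AGO4), where 2043 of 3853 such genes on the array did (53.0%). Among the members' dimmer measured probe sets, 5 of 6 had a higher ratio than the brightest probe set of the gene, where 69.5% did over all such genes. Over all chicken probe sets, the median ratio was 0.24 in the group with signals from 118 to 221 and -0.06 in the brightest group, above 3817. The arrays also differed in the labelled RNA, with a 3' to 5' signal ratio of 1.85 on the knockdown array and 5.45 on the control array for the actin control transcript, of 1.5 on the knockdown array and 2.92 on the control array for EEF1A1, and of 1.05 on the knockdown array and 1.25 on the control array for GAPDH. Whether that difference has a part in the split probe sets, or in the ratios of DICER1 and the other members, was not tested.

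**Figure D3:**
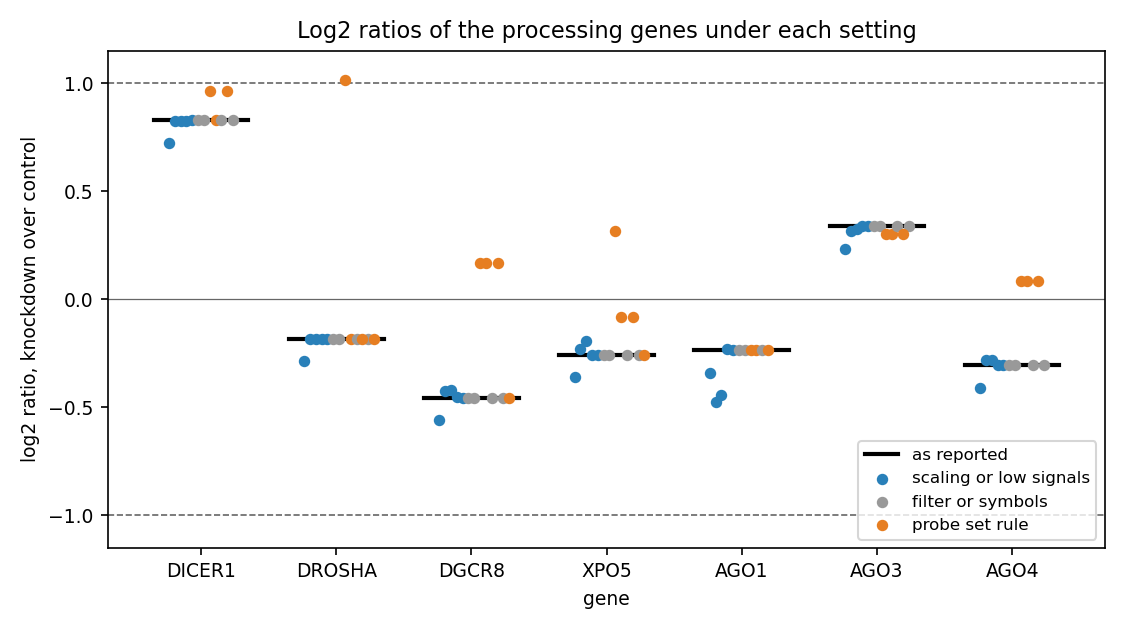
Log2 ratio of knockdown over control (y axis) for the 7 genes (x axis); the black bar is the value as reported, blue points are other scalings or treatments of low signals, grey points other filters or symbols, orange points other rules for a gene's probe sets, and dashed lines mark 2-fold. DICER1 and AGO3 stay above 0 and AGO1 below 0 under all settings that gave a value, while DROSHA, DGCR8, XPO5 and AGO4 each cross 0 under at least 1 probe set rule. AGO1 has only 1 probe set, and all probe sets of DICER1 and AGO3 lie above 0. Averaging over probe sets could therefore not turn the sign of DICER1, AGO3 or AGO1.

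Other genes of the small RNA pathway were sorted into 7 lists by role, with 144 genes in all, 117 matched to a probe set and 88 measured. By their brightest probe sets, 5 of these were at least 2-fold higher in the knockdown sample and 0 at least 2-fold lower. Over all measured genes, 3.64% and 1.06% were. The 88 genes had a median log2 ratio of -0.07, beside 0.02 over all measured genes. Within 1.5-fold lay 74 of the 88, and 7711 of all 9303 measured genes. A gene can stand in more than 1 list. The split of 5 higher and 0 lower depended on the setting. With the mean over measured probe sets, 4 were higher and 1 lower, beside 346 and 81 of all 9303 measured genes. With the mean over all probe sets, 8 were higher and 3 lower, beside 664 and 191. With no filter on low signal, 12 of 117 were higher and 4 lower, beside 1300 and 652 of 13008.

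By their brightest probe sets, 1 of 16 measured cofactors of the microprocessor was at least 2-fold higher and 0 lower. Over all measured genes, 3.64% and 1.06% were. The list had a median log2 ratio of -0.10, beside 0.02 over all measured genes. The gene past 2-fold was LIN28B, an RNA-binding protein that blocks maturation of let-7 microRNAs. It had a signal of 1224 in the knockdown sample and 466 in the control sample (log2 ratio 1.39). Its relative LIN28A had 617.4 in the knockdown sample and 380.8 in the control sample (0.70), but its other measured probe set gave -0.34. NCBP1, the large subunit of the nuclear cap-binding complex, had 6681 in the knockdown sample and 11600 in the control sample (-0.80). Its other measured probe set gave -1.21, which is past 2-fold lower. The helicases DDX5 and DDX17, which join the microprocessor, were at -0.16 and -0.09, with 0.35 by the other measured probe set of DDX17.

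Genes for export and Argonaute loading had 0 of 15 measured members past 2-fold, beside 4.71% of all measured genes, and a median of -0.04. RCC1, the exchange factor that charges Ran, the small GTPase that exportins need, had 3809 in the knockdown sample and 2140 in the control sample (log2 ratio 0.83). RAN itself was at -0.02. NUP153, a nuclear pore protein, was at 0.56 and TSNAX, whose product trims the passenger strand together with that of TSN, at -0.30. The chaperone genes HSP90AA1 and HSPA8, whose products help load Argonaute, were at -0.23 and -0.21, but the other measured probe set of HSP90AA1 gave 0.81.

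Among silencing effectors (median -0.05), 1 of 17 measured genes was at least 2-fold higher and 0 lower, beside 3.64% and 1.06% of measured genes. That gene was MOV10, a helicase found with Argonaute, with a signal of 186.4 in the knockdown sample and 92 in the control sample (log2 ratio 1.02). The scaffolds TNRC6A, TNRC6B and TNRC6C, which link Argonaute to deadenylation, had log2 ratios of 0.02, -0.05 and -0.37 by their brightest probe sets. The other measured probe set of each gave 0.83, 0.12 and 0.88, on the other side of 0 for TNRC6B and TNRC6C. ELAVL1, an RNA-binding protein that stabilises many messengers, was at 0.93 by its brightest probe set and as low as -0.80 by another. DDX6, a helicase of repressed messengers, was at -0.57.

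Deadenylation and decay genes had 3 of 21 measured members at least 2-fold higher and 0 lower, beside 3.64% and 1.06% of measured genes. The list had a median of -0.11. CNOT9, a CCR4-NOT subunit, had 2694 in the knockdown sample and 1015 in the control sample (log2 ratio 1.41), yet its 4 measured probe sets ran down to -0.68. EDC4, a decapping scaffold, had 436 in the knockdown sample and 186 in the control sample (1.23), and LSM14B, an RNA-binding protein of repressed messengers, had 790 in the knockdown sample and 389 in the control sample (1.02). The deadenylase genes CNOT6, CNOT7 and CNOT8 lay between -0.33 and -0.11 by their brightest probe sets, and another of the 3 measured probe sets of CNOT6 gave 0.72.

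The last 3 lists had 0 measured genes past 2-fold, beside 4.71% of all measured genes. Small RNA turnover genes (8 measured, median -0.02) were led by ZSWIM8, which takes part in target-directed microRNA decay, with 218.4 in the knockdown sample and 113.2 in the control sample (log2 ratio 0.95), followed by the exonuclease genes DIS3L2 at 0.47 and XRN2 at -0.26. Genes listed under the piwi pathway, a germline small RNA system, were measured for 5 of 15 matched genes (median 0.01). Among them were FKBP6 at 0.34 and the Argonaute relative PIWIL1 at 0.27. TDRD3, which is not specific to that pathway, was at -0.17 (0.57 by its other measured probe set). Of the 10 matched piwi genes too dim to count as measured, 4 lay below background on both arrays and 2 above it on both. Above it in the knockdown sample only were TDRKH (149.5 against 60.7, at least 2.35-fold higher), TDRD6 (at least 1.59-fold higher) and TDRD1 (at least 1.51-fold higher). PNLDC1 was above it in the control sample only, with 30.6 in the knockdown sample and 90.6 in the control sample. Genes of double-stranded RNA sensing were measured for 7 of 20 matched genes, with a median of -0.32. MAVS, the adaptor of cytosolic RNA sensors, was at -0.65 (0.01 by its other measured probe set), the RNA-activated kinase gene EIF2AK2 at -0.41 and the ubiquitin ligase gene TRIM25 at 0.56. The other 13 matched genes of this list were dim, with 5 below background on both arrays, 3 above it in the knockdown sample only and 5 above it on both. The interferon-induced genes MX1 and RSAD2 were among the 5 below background on both. The 3 above it in the knockdown sample only were the RNA sensor gene IFIH1 (at least 1.53-fold higher), IRF1 (at least 1.47-fold higher) and ZNFX1 (at least 1.05-fold higher). Of those above background on both arrays, ISG12-2, listed as IFI6, had 129.5 in the knockdown sample and 72.3 in the control sample (1.79-fold higher), while DHX58 had 68.8 in the knockdown sample and 121.5 in the control sample (1.77-fold lower).

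**Figure D4:**
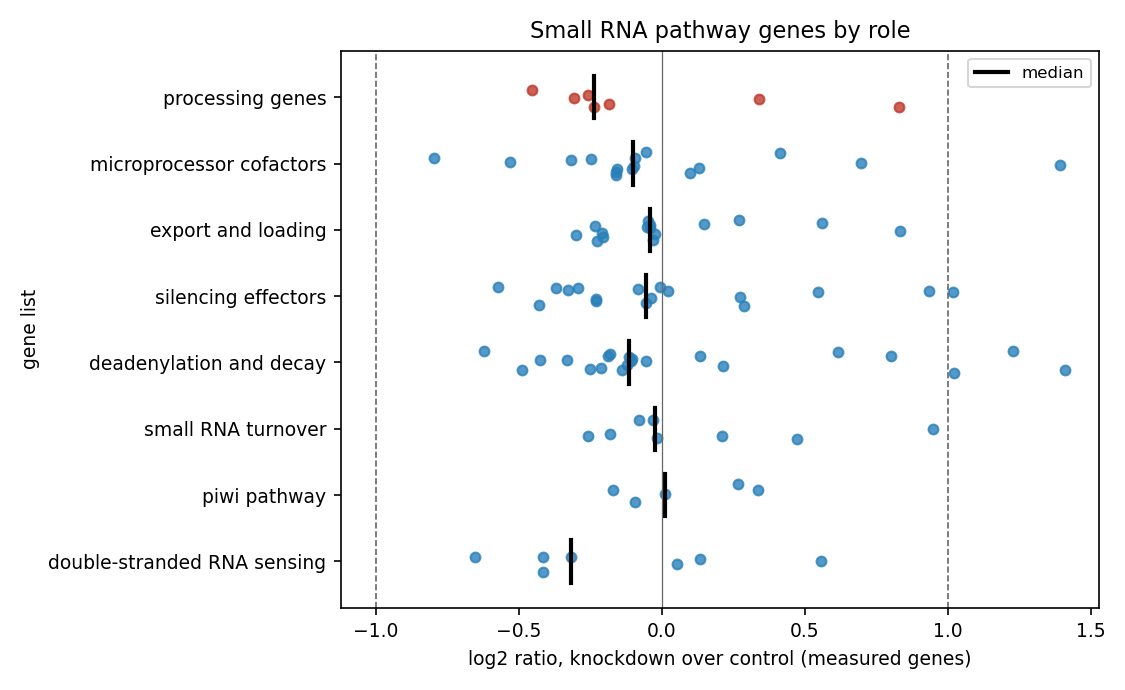
Log2 ratio of knockdown over control (x axis) of each measured gene in 8 lists (y axis); red points are the 7 processing genes, blue points other pathway genes, black bars the list medians, and dashed lines mark 2-fold. Points are shifted up and down at random within a list so that they can be seen. The 5 genes to the right of 2-fold are LIN28B, MOV10, CNOT9, EDC4 and LSM14B, and none lies to the left of it. MOV10 and LSM14B, both at 1.02, lie just past the line.

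Markers of other cells differed between the samples as well. All 4 measured blood markers (of 6 listed) were at least 2-fold higher in the knockdown sample, where 3.64% of measured genes were. Summed signals of the matched markers were 48147 in the knockdown sample and 19794 in the control sample. The 6 muscle markers were all at least 2-fold higher (summed signals 10930 in the knockdown sample and 1577 in the control sample), among them MYL2, which lay below background in the control sample and was at least 5.18-fold higher. Endothelial markers (5 of 5 above 0, with PECAM1 at 0.16) summed to 2201 in the knockdown sample and 841 in the control sample. Surface ectoderm markers (4 of 4 measured above 0) summed to 6796 in the knockdown sample and 4394 in the control sample, with ESRP1 below background on both arrays. Much of the ectoderm sums came from EPCAM, which was even (0.01), with 3312 in the knockdown sample and 3291 in the control sample. Of all 9303 measured genes, 4850 lay above 0. By their brightest probe sets the 6 markers of newborn neurons were all at least 1.5-fold lower, where 5.71% of measured genes were. Their sums were 38595 in the knockdown sample and 68347 in the control sample. Other measured probe sets gave -0.97 for ELAVL4, -0.54 for NEFM, -0.47 for STMN2 and up to 0.15 for DCX. In bulk samples, fewer cells of a type and less RNA per cell cannot be told apart, and the part of these cells in the ratios of DICER1 and the other genes was not tested.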

How the data were processed

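Gene expression was measured on Affymetrix chicken arrays from biotin-labelled RNA of sorted cells, with 1 array per group. Per the submitters' processing notes the deposited signal intensity of each probe set is the output of MAS5 5.0. The deposited intensities had nearly equal means after removal of the highest and lowest 2% (1000.2 on the knockdown and 1000.3 on the control array) and were converted to log2 without further scaling.

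Symbols came from the platform annotation; an update through Entrez gene numbers against the RefSeq table (GRCg7b) changed none. A single symbol was held by 27166 of the 37693 chicken probe sets; the 177 with several and the 10350 without one entered no gene count. Genes named are all members, the targets and, per list, those past 2-fold and the 3 with the largest ratios; further pathway genes were named after their values were seen. The members and lists were chosen with earlier results of these data known. Alternatives changed scaling, low signals, filter, probe set rule and symbols. Ratios were computed in Python 3.11.15. The code was run on simulated signals with known ratios and no array effect. That checks the computing alone and not how probe sets or arrays differ.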

Additional observations from a re-analysis of the deposited data

How the results depend on the processing

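Over 13 alternatives, 2 of them chosen after the data were seen (the mean over probe sets above background on both arrays, and plain _at names only), the scalings, filters and symbols left the members' median below 0, and averaging over probe sets turned it. With plain _at names only it was -0.26 over 3 members, beside 0.01 over all measured genes. With the mean over all probe sets the median was 0.30 (0.14 over all measured genes), DROSHA 1.01, DGCR8 0.17 and XPO5 0.32. Under that rule 1 of 7 members (DROSHA, through probe sets below background) was past 2-fold, where 9.19% of measured genes were. With the mean over measured probe sets, or over those above background on both arrays, the median was 0.083 (0.099 and 0.10 over all measured genes), DGCR8 0.17 and AGO4 0.083. Pathway genes past 2-fold numbered 5 of 88 as reported (5.68%, beside 4.71% of all measured genes). With median centring, quantile normalization or loess centring they numbered 3 of 88 (3.41%, beside 4.37%, 4.05% and 4.11%). There were 16 of 117 with no filter (13.7%, beside 15.0%) and 12 of 109 with the filter at the 25th percentile (11.0%, beside 9.72%). There was 1 of 63 at the 75th (1.59%, beside 1.99%), and 11 of 88 with the mean over all probe sets (12.5%, beside 9.19%). The stricter or looser filters test fewer or more genes. Median centring takes 0.10 from every log2 ratio, which puts MOV10 and LSM14B, both at 1.02 as reported, under 2-fold. For the other settings the cause was not tested. AGO1 was not measured at the 75th percentile, and DICER1 and the Argonautes have no plain _at probe set. Over all measured genes, 2-fold calls were 339 higher and 99 lower as reported, 256 and 151 with median centring, 209 and 168 with quantile normalization, and 220 and 162 with loess centring. They numbered 1952 of 13008 genes with no filter, 1131 of 11630 at the 25th percentile and 117 of 5883 at the 75th. With the mean over all probe sets there were 855 of 9303, beside 438 of 9303 as reported. A gene's ratio was taken as moved when it shifted by more than the probe set SD at its signal, and a count when it changed by over 1.5 times. For the members' median the cutoff was the median of the members' SDs over the square root of the number of measured members. That cutoff treats the members as independent, though all come from the same 2 arrays, and it does not measure the spread between samples. No paired analysis was possible because each group has 1 array. Signal over background limits the dim probe sets, and 5 of the 19 give a bound or no fold.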
